A study of Mus musculus with 16 samples.

Results

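The response of DNA single-strand break signal to talazoparib was compared between Tdg knockout (KO) and wild-type (WT) mouse embryonic stem cells at 5638 genomic regions. Peaks of the 4 deposited peak lists on chromosomes 1 to 19 were merged where they shared at least 1 bp, which gave 60228 regions, and the 5638 regions were those with a peak in all 4 lists. The lists belonged to KO cells with talazoparib, KO cells with DMSO, WT cells with talazoparib and WT cells with DMSO. Talazoparib was given at 5 nM for 24 h, and the duration of DMSO is not given in the labels. Each condition had 3 immunoprecipitated (IP) libraries and 1 input library, 16 libraries in all, and each peak list pooled the IP libraries of its condition. All cells were C57BL/6JRj embryonic stem cells kept in serum-free 2i medium with LIF, a mixture that holds them in the naive pluripotent state. The KO label reads Tdg-depleted, and the growth notes describe a Tdg minigene that 4-OHT removes, with the same wording for every sample. Whether WT cells received 4-OHT, and how many clones were used, is not stated. KO and WT libraries were sequenced on separate pairs of flow cells, so level differences between genotypes and between sequencing runs cannot be told apart, whereas the talazoparib and DMSO libraries of a genotype shared their flow cells.

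Thymine DNA glycosylase (TDG) removes thymine from G:T mispairs and removes the oxidised cytosines that TET enzymes make from 5-methylcytosine. The abasic site it leaves is cut, filled and ligated by base excision repair, which passes through a single-strand break. PARP1 and PARP2 bind such breaks and attach ADP-ribose chains to repair proteins, and talazoparib blocks this activity and holds PARP on the DNA. In SSB-seq, DNA polymerase I starts from existing nicks and inserts a labelled nucleotide, and the labelled fragments are then immunoprecipitated and sequenced. Most promoters rich in CpG are free of methylation in mouse embryonic stem cells.

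For each region the normalised tags of its peaks (IP tags per 1e+07) were summed in each list, and the regions were ranked within the list as percentiles. The rank change of a genotype is its talazoparib percentile minus its DMSO percentile. The rank interaction is the KO change minus the WT change, so that a positive value means a higher change in KO cells. With 1 pooled list per condition there was no replicate value, no test was possible, and all differences are descriptions of these 4 lists. Intervals in brackets are 95% intervals and do not cover the spread between cultures. For medians and shares they cover spread over regions treated as independent, and for tag ratios the counting error of the tags.

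The promoters of 4 genes are shown because their regions had large rank interactions on both scales used here, summed tags and tags per bp of peak, and they were chosen after these values were seen. The first pair had positive interactions and the second pair negative ones. Each line is the RefSeq window of GRCm38.p6 (the build called mm10) from 250 bases before the gene start to 50 after it, written 5′ to 3′ on the strand of the gene, with every CG in capitals.
Rspry1: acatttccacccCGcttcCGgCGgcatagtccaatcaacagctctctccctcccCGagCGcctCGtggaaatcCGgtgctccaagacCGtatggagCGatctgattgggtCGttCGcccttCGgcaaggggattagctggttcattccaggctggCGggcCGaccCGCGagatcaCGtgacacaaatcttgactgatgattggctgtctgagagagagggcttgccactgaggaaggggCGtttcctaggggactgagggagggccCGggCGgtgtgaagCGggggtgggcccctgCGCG
Uhrf1: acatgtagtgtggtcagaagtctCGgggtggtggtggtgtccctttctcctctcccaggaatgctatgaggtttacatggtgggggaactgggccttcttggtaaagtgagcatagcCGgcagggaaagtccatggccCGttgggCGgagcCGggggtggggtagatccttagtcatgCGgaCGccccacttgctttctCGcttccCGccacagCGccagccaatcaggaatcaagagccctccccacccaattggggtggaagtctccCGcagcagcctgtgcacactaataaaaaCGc
Kcnma1: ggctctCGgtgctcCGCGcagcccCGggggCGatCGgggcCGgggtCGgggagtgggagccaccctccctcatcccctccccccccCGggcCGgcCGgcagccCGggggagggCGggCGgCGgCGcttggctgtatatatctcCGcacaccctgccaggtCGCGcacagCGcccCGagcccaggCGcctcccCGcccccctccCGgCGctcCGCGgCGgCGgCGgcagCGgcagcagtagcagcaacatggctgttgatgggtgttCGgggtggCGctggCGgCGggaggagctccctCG
Celf6: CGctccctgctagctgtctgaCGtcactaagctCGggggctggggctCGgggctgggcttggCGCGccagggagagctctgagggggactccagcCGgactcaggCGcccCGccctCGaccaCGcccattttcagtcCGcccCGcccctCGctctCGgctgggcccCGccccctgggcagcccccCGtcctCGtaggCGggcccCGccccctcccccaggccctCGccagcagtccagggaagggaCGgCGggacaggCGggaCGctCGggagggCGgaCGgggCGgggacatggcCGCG
The Rspry1 window lies at chr8:94601691-94601990 on the plus strand and holds 23 CG, and 21.5% of all 32851 RefSeq windows hold as many or more. The Uhrf1 window at chr17:56303087-56303386, plus strand, holds 12 CG, a number reached by 39.6% of windows. The Kcnma1 window at chr14:24004156-24004455, minus strand, holds 36 CG, reached by 6.23% of windows. The Celf6 window at chr9:59578087-59578386, plus strand, holds 31 CG, reached by 10.6% of windows. Over the whole regions the order differs, with CpG per 100 bp of 7.17 at Rspry1, 5.99 at Uhrf1, 9.37 at Kcnma1 and 6.58 at Celf6. A CG reads the same on both strands, so one search covers both.

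The lists differed in depth and length before any comparison. Recovered IP totals were 66.4 M tags for KO talazoparib, 69.2 M for KO DMSO, 83.8 M for WT talazoparib and 87.0 M for WT DMSO. The 5638 regions took up 24.7% of the autosomal peaks of the KO talazoparib list, 16.3% of KO DMSO, 37.8% of WT talazoparib and 20.7% of WT DMSO. At these regions the median sum was 22.3 normalised tags (148 recovered IP tags) in KO talazoparib, 23.2 (161) in KO DMSO, 10.7 (89.7) in WT talazoparib and 14.0 (122) in WT DMSO. The median input was 11.5 tags in KO talazoparib, 8.5 in KO DMSO, 4.5 in WT talazoparib and 9.5 in WT DMSO. The WT talazoparib list was the shortest and had the lowest input at these regions, and its part in the results was not tested. Of 7 embryonic stem cell marker genes, 3 (Esrrb, Tfcp2l1 and Klf4) carried a member region, against 1 of 7 extraembryonic endoderm markers (Lama1) and 0 of 7 fibroblast markers. Break peaks do not measure expression, so the cell type was not checked by them. The Tdg gene was no member: the talazoparib lists had 0 peaks there, the KO DMSO list had 1 peak of 8.60 normalised tags and the WT DMSO list 1 peak of 20.9, and such peaks do not check the deletion.

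Regions with a peak in all 4 lists were mainly promoters, and the way a region changed with talazoparib in KO cells had almost no linear relation to the way it changed in WT cells. A promoter region had its centre between 1 kb upstream and 100 bp downstream of an annotated transcript start. Promoters made up 67.3% of the 5638 regions against 22.2% of all merged regions, gene bodies 22.9% against 48.5%, and intergenic regions 9.79% against 29.3%. Across the 5638 regions, the KO change and the WT change had a Pearson correlation of -0.0060 and a Spearman correlation of -0.022, over points that share the same libraries and the same merged bounds. By class the Pearson correlation was -0.065 over 3796 promoters, 0.040 over 1290 gene body regions and 0.11 over 552 intergenic regions. Within a genotype the order of the regions was largely shared between treatments, with a Spearman correlation of 0.803 between talazoparib and DMSO in KO cells and 0.726 in WT cells.

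Changes of 10 points or more fell in all combinations of direction. A change of at least 10 percentile points upward was seen at 1488 regions in KO cells (26.4%) and at 1596 in WT cells (28.3%), and a change of at least 10 points downward at 1288 in KO cells (22.8%) and 1542 in WT cells (27.4%). Both genotypes were up at 438 regions (7.77%, 7.10 to 8.50) and both were down at 394 (6.99%, 6.35 to 7.68). KO was up with WT down at 469 regions (8.32%, 7.63 to 9.07), and KO was down with WT up at 411 (7.29%, 6.64 to 8.00). Among regions that were up in WT cells, 27.4% (25.3 to 29.7) were also up in KO cells, against 26.4% of all regions. Among regions that were down in WT cells, 30.4% (28.2 to 32.8) were up in KO cells, an interval above 26.4%. The share down in KO cells was 25.75% (23.67 to 27.95) among regions up in WT cells. Among regions down in WT cells it was 25.55% (23.44 to 27.79). Both intervals lay above the 22.8% of all regions that were down in KO cells.

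**Figure D1:**
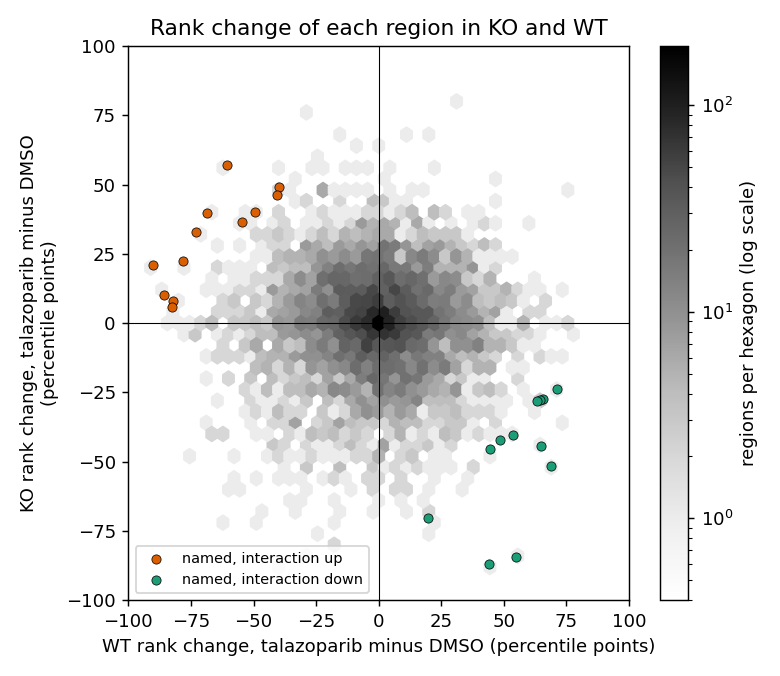
Rank change of each of the 5638 regions in KO cells (vertical axis) against WT cells (horizontal axis), both talazoparib minus DMSO in percentile points. Grey hexagons count regions on a log scale, coloured points are the 24 named regions, and the cloud has no slope (Pearson correlation -0.0060).

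The rank interaction had a standard deviation of 28.1 points over regions, against 18.1 for the KO change and 21.4 for the WT change. Its quartiles were -16.0 and 16.4, and it ran from -139 to 118. It reached at least 20 points up at 1204 regions (21.4%) and at least 20 points down at 1160 (20.6%), and these shares are the background for every count of regions given here. On the tag scale, the log2 ratio of ratios of the 4 sums (talazoparib over DMSO in KO cells, over the same in WT cells) had a median of 0.25 over all regions, and log2 values are given relative to it. Their standard deviation was 0.94, against 0.29 for counting error alone (root mean square), and the counting interval lay off 0 at 54.3% of regions, above it at 1501 and below it at 1560.

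Promoters as a class had a median rank interaction of -0.062 (-0.64 to 0.53), from a median change of 1.85 points in KO cells and 1.41 in WT cells, and 779 of 3796 (20.5%) were at least 20 points up with 793 (20.9%) down. On other scales the interval of the promoter median lay below 0, at -1.51 (-2.38 to -0.68) per bp and -0.046 (-0.075 to -0.014) on the log2 scale. Gene body regions had a median of 0.23 (-0.94 to 1.84), with 287 of 1290 (22.2%) up and 283 (21.9%) down, and other settings moved it between -1.50 and 5.29. Within them the sign differed by position, with -1.97 (-4.07 to -0.22) over 476 exonic regions and 2.22 (0.19 to 4.47) over 814 intronic ones. Median CpG per 100 bp was 5.91 in the exonic and 2.23 in the intronic regions. Intergenic regions had a median of 3.59 (1.32 to 5.55), from a median change of -0.94 in KO cells and -6.48 in WT cells, and it turned to -0.57 over the 68 intergenic regions with peaks of nearly equal length. Of these 552 regions, 138 (25%, 21.6 to 28.8) were at least 20 points up and 84 (15.2%, 12.5 to 18.5) down. Outside promoters the median was -0.32 (-1.93 to 1.48; 0.20 per bp) at 1157 regions under 5 kb from a start and 3.50 (1.46 to 5.46) at 645 regions 5 to 50 kb away. Promoters with starts on both strands had a median of 1.68 (0.17 to 3.26) over 883 regions, against -0.56 (-1.33 to 0.12) over 2913 with starts on 1 strand. Per bp both medians were below 0, at -0.51 with starts on both strands and -2.02 with starts on 1.

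**Figure D2:**
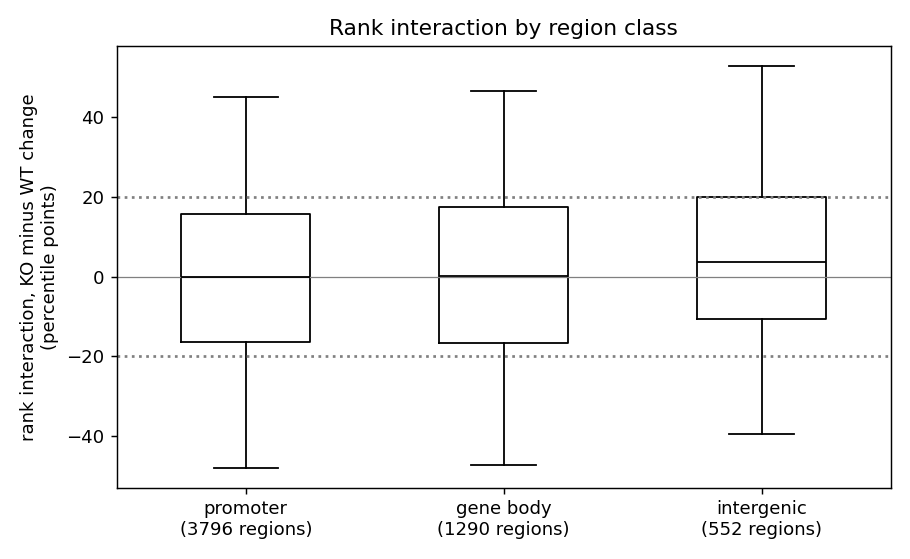
Rank interaction (KO change minus WT change, percentile points) by region class. Boxes span the quartiles with the median as a line, whiskers run from the 5th to the 95th percentile of regions, dotted lines mark 20 points up and down, and the intergenic box sits above the others with a median of 3.59. The classes differed in CpG content, with medians per 100 bp of 5.73 for promoters, 3.75 for gene bodies and 1.78 for intergenic regions.

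The interaction followed the CpG content of the region. Ordered by CpG per 100 bp in 5 equal groups, the median rank interaction was 5.33 (3.54 to 6.74) in the group with fewest CpG, then 9.31 (7.63 to 11.3), 1.60 (0.34 to 2.99), -2.55 (-3.82 to -1.14) and -9.66 (-11.6 to -7.79) in the group with most. In the group with most CpG, 99 of 1127 regions (8.78%) were at least 20 points up and 387 (34.3%) down, whereas in the second group 364 of 1127 (32.3%) were up and 140 (12.4%) down. Median KO changes were -1.07, 3.91, 3.47, 1.10 and -1.80 points from fewest to most CpG, and median WT changes were -7.09, -4.49, 0.47, 4.23 and 6.69. The WT change thus climbed at each step, while the KO change was highest in the second and the third group.

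The same order held on the scale of tags per bp, where the median interactions were 3.25, 11.1, 2.38, -5.29 and -12.1. It held among promoters alone: the third of promoters with fewest CpG had a median of 9.56 (7.75 to 11.5), from a change of 4.27 in KO cells and -4.81 in WT cells, and the third with most had -7.63 (-8.92 to -5.98), from -0.80 in KO cells and 6.39 in WT cells. Of the promoters with fewest CpG, 421 of 1266 (33.3%) were at least 20 points up and 165 (13%) down, and of those with most, 113 of 1265 (8.93%) were up and 392 (31.0%) down. Gene body regions ran from 6.02 (3.16 to 7.86) in the group with fewest CpG to -14.9 (-19.2 to -10.1) in the group with most. The group with fewest CpG held 409 of the 552 intergenic regions. Its medians were 7.85 at promoters, 6.02 in gene bodies and 4.03 in intergenic regions. In the second group they were 10.9, 5.43 and 6.87, and in the third 2.31, -1.97 and 4.27. The next groups held 15 and 7 intergenic regions. The part of CpG content in the class medians was not tested. Within each of the 19 chromosomes the Spearman correlation of interaction and CpG was negative, between -0.364 and -0.130. The chromosome medians themselves ran from -4.88 (-11.3 to 0.14) on chromosome 18 to 5.25 (2.25 to 7.58) on chromosome 7.

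**Figure D3:**
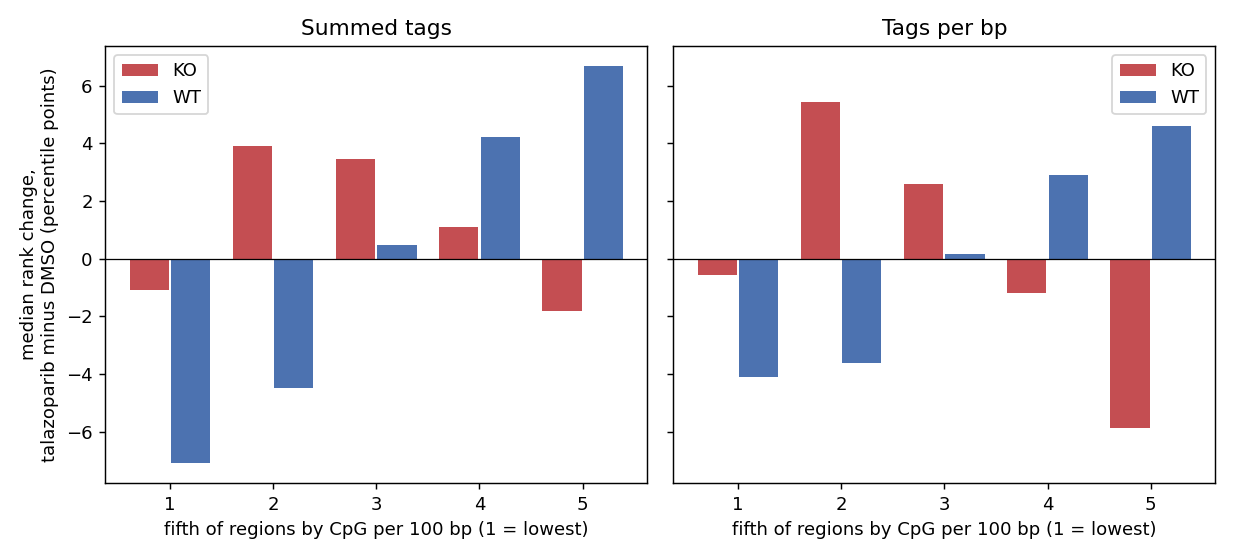
Median rank change, talazoparib minus DMSO in percentile points, of KO (red) and WT (blue) cells in 5 equal groups of the 5638 regions ordered by CpG per 100 bp, for summed tags on the left and tags per bp on the right. In the group with most CpG the summed-tag bars are at -1.80 for KO and 6.69 for WT.

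GC content and CpG frequency could be separated in part. Regions were split in 3 by GC and in 3 by the observed over expected CpG ratio. At middle GC, the median interaction was 9.18 over 558 regions of low CpG ratio and -4.51 over 540 of high ratio. At high GC, the corresponding medians were 5.51 over 107 regions and -8.13 over 1154. At low GC, they were 4.88 over 1214 regions and 2.31 over 185, the smallest gap of the 3. There the 481 regions of middle ratio had the highest median, 7.98, so the order was not a steady decline. Median GC still rose from low to high ratio, from 55.8% to 56.9% at middle GC and from 60.1% to 62.9% at high GC. The RefSeq windows matched 622 of the 779 promoters at least 20 points up, 617 of the 793 at least 20 points down and 3007 of all 3796 promoters. Where a region matched several windows, the one with most CG was taken. Median CG numbers over the regions were then 21 for those up, 29 for those down and 26 for all promoters. The plain median over all 32851 RefSeq windows was 7. That number is not directly comparable, since it covers a different set of promoters and no richest window was picked.

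The WT talazoparib list differed from the other lists in how its tags followed CpG, and so did its input. The Spearman correlation of IP tags per bp with CpG over the 5638 regions was 0.299 in KO talazoparib, 0.395 in KO DMSO, 0.552 in WT talazoparib and 0.395 in WT DMSO. For input tags per bp, the correlations were 0.235 in KO talazoparib, 0.195 in KO DMSO, 0.515 in WT talazoparib and 0.307 in WT DMSO. The same input ratio of ratios, per bp and on the log2 scale, had a median of 1.23 in the regions with fewest CpG and 0.31 in those with most. The part of the input in the CpG order was not tested. Among the 3817 regions with at least 3 input tags in every list, the 5 medians were 0.95, 7.48, 0.080, -3.18 and -10.2, and among 1231 regions whose longest peak was at most 1.5 times the shortest they were 2.31, 9.04, 5.15, -0.76 and -5.92.

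The named genes were the 12 highest and 12 lowest interactions among regions with 1 peak per list in a protein-coding gene and a counting interval on the same side of 0. All 24 had KO and WT changes of opposite sign, which the selection for large interactions favours. Promoters were 7 of the 12 upward and 6 of the 12 downward regions. The upward ones ran from 86.7 to 118 points. The highest was the promoter of Hist3h2a, a core histone H2A gene, at chr11:58953617-58955385, with 34.7 normalised tags in KO talazoparib, 13.8 in KO DMSO, 4.83 in WT talazoparib and 21.1 in WT DMSO. Its rank interaction was 118 and its relative log2 ratio of ratios 3.21 (2.61 to 3.81). The KO talazoparib sum was the highest of the 4 lists and the WT talazoparib sum the lowest.

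Uhrf1, whose protein brings the maintenance methyltransferase DNMT1 to hemimethylated DNA, had its promoter region at chr17:56302563-56304684, over the window shown above. It held 49.9 normalised tags in KO talazoparib, 38.2 in KO DMSO, 2.86 in WT talazoparib and 27.2 in WT DMSO. The interaction was 95.9, made of 10.1 in KO cells and -85.7 in WT cells, and 73.1 on the scale of tags per bp. The WT talazoparib value stood alone as low, and that list held 0.5 input tags there, against 17.5 in KO talazoparib, 12.5 in KO DMSO and 20.0 in WT DMSO. Zbtb7b, a zinc finger transcription factor of CD4 T cell development, was 60.9 in KO talazoparib, 40.0 in KO DMSO, 1.03 in WT talazoparib and 91.4 in WT DMSO on the percentile scale, an interaction of 111. Ap4s1, a subunit of the AP-4 adaptor complex, and Ackr3, an atypical chemokine receptor, had interactions of 108 and 106. Both had WT talazoparib as the lowest of the 4 sums, at 2.62 normalised tags for Ap4s1 and 4.35 for Ackr3. The others were Gm45871 (101), the phospholipase gene Pnpla6 (91.1), 2900026A02Rik (90.1), the ubiquitin ligase scaffold Cul4a (89.2), Tsks, a substrate of testis kinases (88.8), the heparan sulfate sulfatase Sulf2 (88.1) and the AP-3 subunit Ap3m1 (86.7). In 10 of the 12 the WT change was the larger, and in 9 of the 12 the WT talazoparib peak was 500 bp long. In each of the 12 the WT talazoparib input was the lowest of the 4 lists. Besides Uhrf1, it was 0.5 tags at Zbtb7b, Ap4s1, Gm45871 and 2900026A02Rik and 1 at Ackr3 and Pnpla6. At the others it was 2.5 to 3.5 tags, and its part in the low sums was not tested.

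The downward regions ran from -89.9 to -139 points. Erf, an ETS repressor controlled by ERK signalling, was the lowest, at chr7:25249212-25252028, in an exon with its centre 110 bp from a start. It held 6.17 normalised tags in KO talazoparib, 44.7 in KO DMSO, 29.5 in WT talazoparib and 11.4 in WT DMSO. The interaction was -139, from -84.3 in KO cells and 54.7 in WT cells, and the relative log2 ratio of ratios was -4.47 (-5.05 to -3.90). In KO cells the talazoparib sum was below the DMSO sum and in WT cells above it.

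Hdac1, a histone deacetylase, had 3.91 normalised tags in KO talazoparib, 42.9 in KO DMSO, 18.3 in WT talazoparib and 10.2 in WT DMSO at its promoter, an interaction of -131. Kcnma1, the pore-forming subunit of the BK potassium channel, had 4.44 in KO talazoparib, 24.2 in KO DMSO, 16.5 in WT talazoparib and 3.62 in WT DMSO at chr14:24003378-24005321, over the window shown above, an interaction of -120 and -97.4 per bp. In both promoters the KO DMSO sum was the highest of the 4 lists. Arfgap3, an Arf GTPase activator, had an interaction of -94.7, and Prpsap1, a partner of phosphoribosyl pyrophosphate synthetase, -94.1. Others were Gm10642 (-93.1), the RNA-binding protein gene Nanos1 (-92.0), the Arp2/3 subunit Arpc5 (-91.3), the calcium channel gene Cacna1a (-90.5), Pigl of glycosylphosphatidylinositol anchor synthesis (-89.9) and the transcription factor gene Hlf (-89.9). A 500 bp peak was called in KO talazoparib at 5 of the 12 and in WT DMSO at 6. In 8 of the 12 the WT change was the larger. The KO talazoparib input was 3 tags at Erf, 1 at Hdac1, 3 at Kcnma1 and 3 at Hlf. In KO DMSO it was 21.5, 19.5, 10.5 and 18 tags. Arfgap3 went the other way, with 11 input tags in KO talazoparib against 9 in KO DMSO. The part of the input in the low sums was not tested.

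**Figure D4:**
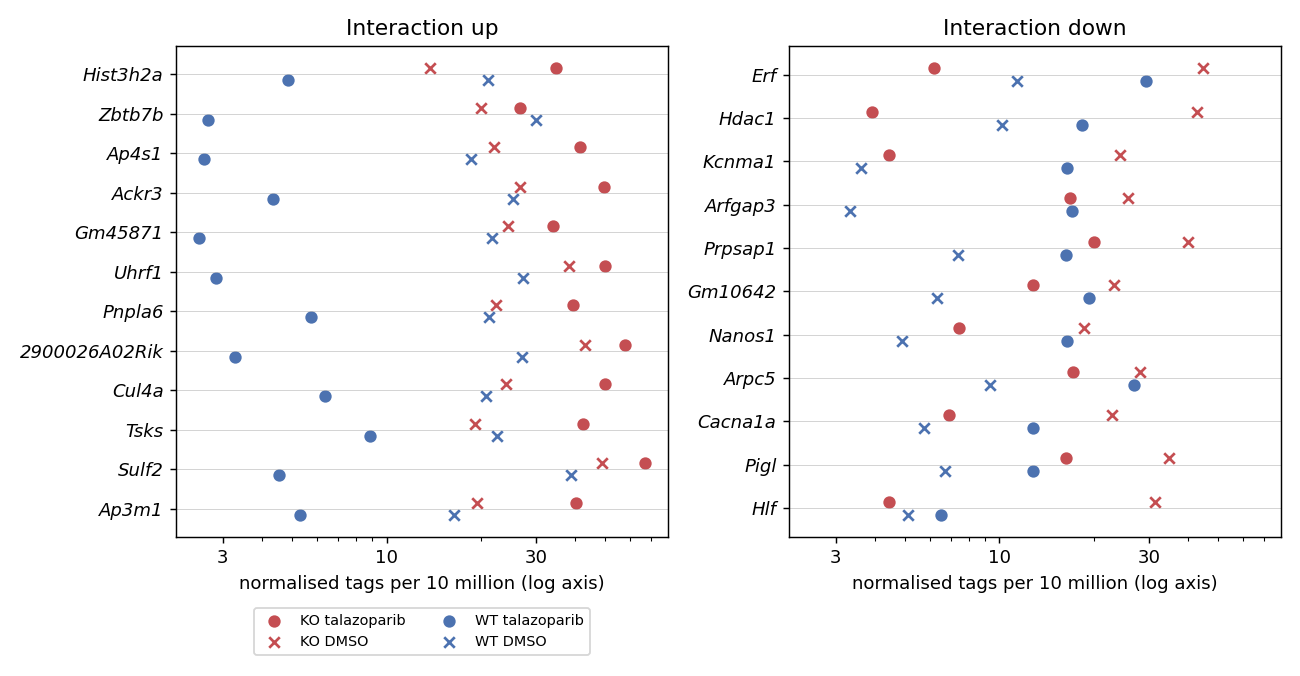
Normalised tags per 1e+07 (log axis) of 23 of the 24 named regions in KO talazoparib (red circles), KO DMSO (red crosses), WT talazoparib (blue circles) and WT DMSO (blue crosses), with upward interactions on the left and downward ones on the right. On the left, WT talazoparib is low, such as 2.86 at Uhrf1 against 27.2 in WT DMSO.

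The interaction of summed tags moved with the length of the called peaks. The log2 ratio of ratios of peak length had a Pearson correlation of 0.815 and a Spearman correlation of 0.793 with the rank interaction over 5638 regions, both of which are built from the same peaks. Regions at least 20 points up had median peak lengths of 1234 bp in KO talazoparib, 1193 bp in KO DMSO, 653 bp in WT talazoparib and 1258 bp in WT DMSO. Regions at least 20 points down had 894 bp in KO talazoparib, 1523 bp in KO DMSO, 1004 bp in WT talazoparib and 884 bp in WT DMSO. A 500 bp peak was called at 8.46% of regions in KO talazoparib, 3.42% in KO DMSO, 19.2% in WT talazoparib and 9.56% in WT DMSO. The input ratio of ratios over the same peaks also moved with the interaction, with a Spearman correlation of 0.682 for summed input and 0.149 for input per bp. The part of peak length in the interaction was not tested.

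**Figure D5:**
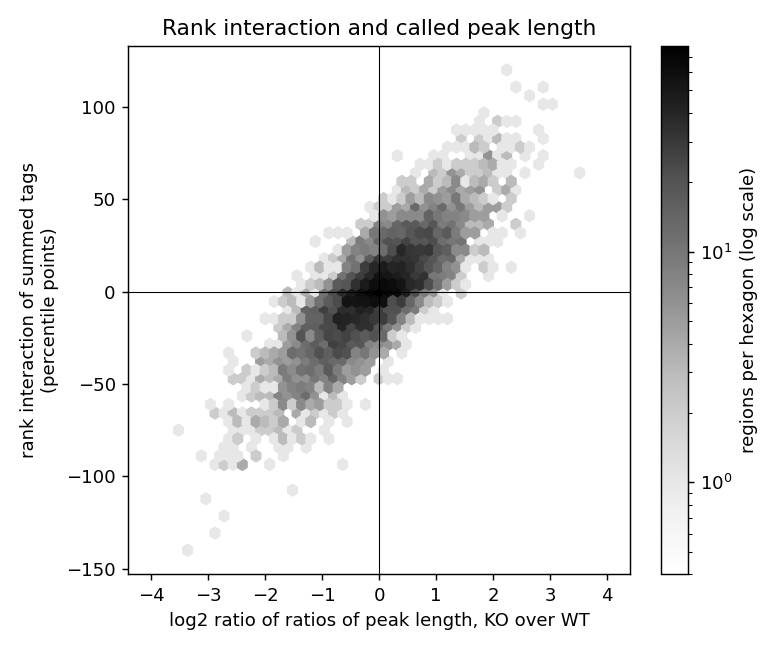
Rank interaction of summed tags (percentile points) against the log2 ratio of ratios of called peak length, KO over WT, for 5638 regions, with grey hexagons counting regions on a log scale. The cloud runs from lower left to upper right, with a Pearson correlation of 0.815.

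Ranking tags per bp instead gave an interaction that had a Pearson correlation of 0.331 with that of summed tags. Past 20 points on both scales in the same direction were 455 regions up and 439 down, 37.8% of each set, and 254 were past 20 points in opposite directions. For comparison, 20.6% of all 5638 regions were at least 20 points up per bp and 20.9% down. Of the named regions, 11 of the 12 upward and 10 of the 12 downward kept their sign per bp, and 6 and 9 of them were past 20 points.

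Several further regions had large interactions on both scales, and these were chosen after their values were seen. The Rspry1 promoter region at chr8:94601035-94602891, over the window shown above, held 37.5 normalised tags in KO talazoparib, 31.7 in KO DMSO, 2.86 in WT talazoparib and 17.8 in WT DMSO, with an interaction of 73.3 and 113 per bp. The Celf6 promoter region at chr9:59577535-59578902, of an RNA-binding protein gene, held 5.12 in KO talazoparib, 26.1 in KO DMSO, 16.5 in WT talazoparib and 13.6 in WT DMSO, with -78.4 and -88.9 per bp. WT talazoparib was the low list at Rspry1, with 1 input tag, and KO talazoparib at Celf6, with 3 input tags. On the upward side were also Slc6a6, the taurine transporter (61.0 and 66.5 per bp), and Mtf1, a metal-responsive transcription factor (70.8 and 59.2 per bp). On the downward side were Lbr, the lamin B receptor (-78.9 and -75.8 per bp), Ell2, a transcription elongation factor (-83.5 and -74.7 per bp), and Taok3, a protein kinase (-76.9 and -78.4 per bp).

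Genes of base excision and strand break repair had a median interaction below 0 and no common direction. Of 35 such genes on chromosomes 1 to 19, 18 had a region, and their 20 regions had a median of -8.98 (-20.3 to 17.4), with 4 at least 20 points up (20.0%) and 6 down (30%), against 21.4% and 20.6% of all regions. The lowest was the promoter of Lig3, the ligase that seals nicks with XRCC1, with 3.91 normalised tags in KO talazoparib, 18.4 in KO DMSO, 11.4 in WT talazoparib and 6.55 in WT DMSO. Its interaction was -74.6, and -66.1 per bp. The highest was Hpf1, the cofactor that directs PARP1 and PARP2 to serine, at 19 in KO talazoparib, 14.6 in KO DMSO, 7.93 in WT talazoparib and 14.7 in WT DMSO. Its interaction of 35.6 turned to -11.1 per bp. Chosen after their values were seen, Parg, which removes ADP-ribose chains, had -30.6 and -34.4 per bp, Fen1, the flap endonuclease, 22.6 and 87.0 per bp, and Pcna, the polymerase clamp, 32.7 and 42.8 per bp.

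Genes of DNA methylation and demethylation were spread around 0. The 14 regions of 13 genes had a median of -0.39 (-21.5 to 17.4), with 2 up (14.3%) and 3 down (21.4%). Uhrf1 was the highest at 95.9, and the lowest was the gene body region of Ehmt2, a histone H3 lysine methyltransferase, at -43.9. Ehmt2 held 7.53 normalised tags in KO talazoparib, 25.3 in KO DMSO, 7.64 in WT talazoparib and 11.4 in WT DMSO, and its interaction was 17.8 per bp, of the opposite sign. The promoters of Dnmt1, the maintenance methyltransferase, and Mbd3, a subunit of the NuRD complex, lay near 0, at 1.15 and 0.11, and were picked after their values were seen.

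Genes of homologous recombination and the Fanconi pathway had 13 regions in 13 genes and a median of 3.70 (-19.5 to 30.1), with 4 up (30.8%) and 2 down (15.4%). Brip1, a helicase partner of BRCA1, was highest, at 34.6 and 33.3 per bp, and held 17.2 normalised tags in KO talazoparib, 12 in KO DMSO, 5.97 in WT talazoparib and 11.7 in WT DMSO. Fanci, of the ID complex, was lowest at -51.8 but 11.7 per bp. The 16 regions of the p53 pathway had a median of 0.13 (-13.1 to 35.2) and of -3.89 per bp, with 5 up (31.2%) and 2 down (12.5%), between Mdm2, the ubiquitin ligase of p53, at -31.5 and Ddb2, a damage sensor, at 52.8, both of which had the other sign per bp (12.2 and -23.6). The promoter of Trp53 itself, chosen after its values were seen, held 42.4 normalised tags in KO talazoparib, 78.2 in KO DMSO, 7.93 in WT talazoparib and 34.7 in WT DMSO, with 46.8 and 64.2 per bp. Talazoparib sums at Trp53 were below DMSO sums in both genotypes.

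Cytosolic ribosomal protein genes had 33 promoter regions in 32 genes and a median of -9.87 (-23.8 to 2.85), with 7 up (21.2%) and 11 down (33.3%). Per bp, the median had the other sign, 4.2. Rpl27a was highest at 54.2, and 5.05 per bp, with 32.4 normalised tags in KO talazoparib, 21.9 in KO DMSO, 10.9 in WT talazoparib and 21.6 in WT DMSO. Histone genes had 13 regions and a median of 6.28 (-12.9 to 20.6), with 3 up (23.1%) and 2 down (15.4%), and -6.37 per bp. They ran from -60.9 at the shared promoter of Hist1h2ag and Hist1h2bj, which was -108 per bp, to 118 at Hist3h2a. Reads at near-identical histone copies are uncertain, since no source used here says how reads with several matches were treated.

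Naive pluripotency genes had 14 regions in 13 genes and a median of 2.98 (-16.2 to 17.2) and of -6.31 per bp, with 2 up and 2 down (14.3% each). They ran from Tcf7l1, a repressor in the Wnt pathway, at -58.1 to Tfcp2l1, a transcription factor of the naive network, at 39.2, and both changed sign per bp (19.4 and -19.3). Primed epiblast genes had 6 regions and a median of 8.24, with 1 up, between Etv5 at -4.54 and Etv4 at 26.7 (-9.15 per bp), both ETS factors, and the median per bp was -11.7. Imprinted genes had 9 regions and a median of -12.3 (-28.3 to 27.5), with 2 up and 4 down, and both extremes fell in Ddc, which encodes an amino acid decarboxylase, at -34.3 and at 29.0, the second of which was -19.0 per bp. Polycomb-silenced regulators had regions in 7 of 69 genes, with a median of 2.16 (-25.5 per bp), and the highest was Tbx18 at 31.9. Hox genes had 4 regions of 39 genes and a median of -22.2, from Hoxd1 at -31.3 to Hoxc13 at 10.1 (-47.7 per bp). Glycolytic enzyme genes had 10 regions and a median of -2.99 (-26.8 to 26.9), from Ldha at -40.9 (18.8 per bp) to Hk1 at 29.7. Large late-replicating genes had 10 regions and a median of 3.36 (-24.0 to 11.7), from Ctnna3 at -24.1 (8.44 per bp) to Magi2 at 25.4 (-4.65 per bp). Markers of other cell types were few: 3 regions of extraembryonic endoderm genes had a median of -14.1 (7.43 per bp), from Lama1 at -19.1 to Lamc1 at -8.74 (7.43 per bp), and 1 region of a fibroblast gene, Fn1, had 17.5 (-57.6 per bp).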

How the data were processed

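Single-strand break sequencing was deposited as 1 peak table per condition, each from 3 pooled IP libraries and 1 input library. Column names of the deposited tables are those of HOMER findPeaks. The build mm10 and the tools HOMER 4.11, Picard 2.9.2, R 3.6 and Bowtie2 2.3.4.2 are named, without roles, per the submitters' processing notes. Per the file headers, the deposited signal is a normalised tag count (IP tags per 1e+07), beside input tags as signal, a fold ratio over input, a p-value against input and a peak score. The smallest deposited fold ratio was 4.00. The authors' p-value and clonal score were not used in a result. Low values of the deposited signal were whole multiples of a step of 0.5 tag in 100% of cases (tolerance 0.0051), which gave the IP totals. No column of another sample was left out (0 such columns). Peak coordinates were copied unchanged, and no source states the base from which their starts are counted.

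Peaks were merged, summed and ranked with Python 3.11.15, numpy 2.4.6, pandas 2.3.3 and scipy 1.17.1, with pysam 0.24.0 for bases and matplotlib 3.10.9 for plots. Genes and starts came from GENCODE M21 on GRCm38 (mm10). The procedure was checked on simulated tag counts at fixed regions. That check held no change in peak length or input and did not cover their part. A gene of a list had a region where the region's centre lay in the gene or within 1 kb upstream. Named genes were the 12 regions per direction with the largest interaction among regions with 1 peak per list, a centre in the promoter or body of a protein-coding gene, a counting interval on the same side of 0 and 1 region per gene, and the extremes of each of 15 gene lists. The regions, gene lists and named-gene rule were chosen with earlier results of these data known. Samples were grouped by title. Intervals of shares are Wilson intervals, medians have exact binomial intervals, and PCR reads without molecular identifiers are not independent molecules. Some regions that this rule selects are not reported here. No test was run. Alternatives changed the quantity ranked, the regions, the peak threshold, the promoter window and the scale.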

Additional observations from a re-analysis of the deposited data

Results flagged for a closer look

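The 24 named regions each had a KO change and a WT change of opposite sign, and with 1 list per condition the difference between the genotypes was not tested. The upward regions were Hist3h2a with a rank interaction of 118 (117.69), Zbtb7b with 111 (111.22), Ap4s1 with 108 (108.39), Ackr3 with 106 (105.63), Gm45871 with 101 (100.58), Uhrf1 with 95.9, Pnpla6 with 91.1, 2900026A02Rik with 90.1, Cul4a with 89.2, Tsks with 88.8, Sulf2 with 88.1 and Ap3m1 with 86.7. The downward regions included Erf with -139, Hdac1 with -131, Kcnma1 with -120, Arfgap3 with -94.7, Prpsap1 with -94.1, Gm10642 with -93.1, Nanos1 with -92.0, Arpc5 with -91.3, Cacna1a with -90.5, Pigl with -89.9 and Hlf with -89.9. These 24 regions were selected for large interactions, which favours changes of opposite sign. Where the interaction exceeds the whole percentile scale, opposite signs are forced.

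The median changes of some sets of regions also had opposite signs in KO and WT cells, a difference that was not tested. Their median interactions were -1.97 for exonic gene body regions, 9.56 for the third of promoters with fewest CpG and -7.63 for the third with most. Among gene lists they were -8.98 for base excision and strand break repair, -0.39 for DNA methylation and demethylation, 3.70 for homologous recombination and Fanconi genes, -12.3 for imprinted genes, 6.28 for histone genes, 3.36 for large late-replicating genes and -14.1 for extraembryonic endoderm genes.

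Mitochondrial peaks lie outside the autosomal regions and were seen in every list. Their fold over input was 5.59 in KO talazoparib, 7.05 in KO DMSO, 4.85 in WT talazoparib and 4.75 in WT DMSO. The peaks covered 14540 bp in KO talazoparib, 14370 bp in KO DMSO, 1129 bp in WT talazoparib and 8187 bp in WT DMSO. The log2 ratio of ratios was 5.77 for summed normalised tags and 2.89 per bp. Input tags in these peaks were 19233.5 in KO talazoparib, 21435 in KO DMSO, 115.5 in WT talazoparib and 15979.5 in WT DMSO. The input was thus also lowest in WT talazoparib, and its part in these ratios was not tested.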

How the results depend on the processing

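No paired analysis was possible because the tables hold no value per library, and leaving out a library could not be run for the same reason. The CpG order of promoters held under all 15 alternatives on the rank scale: the third with fewest CpG had medians of 8.16 to 10.4, and the third with most -10.4 to -6.78, with -10.4 when tags per bp were ranked. The promoter median was -1.51 per bp and -0.046 on the log2 scale, with intervals below 0. The gene body median was -1.50 where the peaks of each list covered at least 50% of the region, -1.43 with at least 3 input tags, 4.95 with a promoter window of 1 kb on either side and 5.29 where any base could decide the class. The intergenic median was 0.90 with that coverage, 7.73 with at least 3 input tags and -0.57 with peaks of nearly equal length, an alternative added after seeing the data. The Pearson correlation of KO and WT changes was -0.106 with that coverage, -0.119 with a fold of at least 6 (337 regions), -0.057 with equal numbers of peaks and -0.118 with nearly equal lengths when those 1231 regions were ranked again, against -0.018 over the same regions with the ranks among all regions. Regions at least 20 points up were 11.3% and down 10.1% with a fold of at least 6, against 21.4% and 20.6%, and 13.6% each with nearly equal lengths. Ranked per bp, 18 of the 51 single regions examined changed sign. They were 15 whose interaction was at least 20 points in size, Gm45871 to -4.42, Arpc5 to 8.90, Pigl to 3.14, Ehmt2 to 17.8, Hpf1 to -11.1, Ldha to 18.8, Fanci to 11.7, Ddc to -19.0, Ctnna3 to 8.44, Magi2 to -4.65, Tcf7l1 to 19.4, Tfcp2l1 to -19.3, Mdm2 to 12.2, Ddb2 to -23.6 and Etv4 to -9.15, and 3 below that size, Hoxc13 to -47.7, Lamc1 to 7.43 and Fn1 to -57.6. The cause of these differences was not tested. Depth set a counting error of 0.29 on the log2 scale.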
